A study of Mus musculus with 8 samples.

Results

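The genes examined here carry BMP and TGF-beta signals in the cells that give rise to blood in the mid-gestation mouse embryo. They are the ligand Bmp4 and its secreted modulator Bmper, the receptors Acvrl1, Bmpr2 and Eng, the inhibitory Smads Smad6 and Smad7, and the targets Id1, Id2 and Id3. The 10 genes were chosen by name, with earlier results of these data known, and all 10 were found among the 24015 genes of the count table. All 10 also passed the filter on low counts, which left 13908 genes for testing.

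RNA was sequenced from hematopoietic clusters and endothelium of the E11.5 AGM+VU, the aorta-gonad-mesonephros region with the vitelline and umbilical arteries. Hematopoietic clusters are groups of emerging blood cells attached to the arterial wall. The sorting gate for clusters was Ter119- VE-Cadherin+ Kit+, and that for endothelium was Ter119- VE-Cadherin+ Kit- CD41- CD45-. Both populations were taken from wild type and from Sl/Sl embryos, which gives 4 groups of 2 libraries each. Every library was made from 100 sorted cells of embryos pooled by genotype. No agent was given to any group. Sl/Sl embryos carry a germline deletion that takes in the gene for Kitl, the ligand of Kit, so every cell of the embryo lacks it, and effects inside the sorted cells and effects of their surroundings cannot be told apart. The comparisons ask how the genes differ between clusters and the sorted endothelium of the same region, and what the loss of Kitl changes in each. The hemogenic endothelium from which clusters emerge was not sorted apart.

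BMP and TGF-beta ligands bind paired type II and type I receptor kinases at the cell surface. The activated type I receptor phosphorylates Smad1, Smad5 and Smad9, or Smad2 and Smad3, which enter the nucleus with Smad4 and switch on target genes. The Id genes are among the most direct targets of the BMP branch, and Smad6 and Smad7 are induced as feedback inhibitors that act on the receptors. In blood vessels, Acvrl1 and its co-receptor Eng receive circulating BMP ligands. Id proteins bind E proteins, the partners of tissue-specific helix-loop-helix factors, and keep them from DNA, and BMP4 made around the aorta is known for its part in the emergence of blood stem cells.

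Counts per library summed to between 8933236 and 13428214. Kitl, the deleted gene, was counted 1250 and 923 times in the endothelium of wild type embryos against 6 and 2 times in that of Sl/Sl embryos. Clusters had little of it, with 110 and 0 counts for wild type against 1 and 3 for Sl/Sl, which leaves the label of wild type clusters 2 unchecked. The sorted cell types were checked with marker lists, given as summed CPM, counts scaled to the same library total. The 18 endothelial markers summed to between 9382 and 10422 CPM in endothelium and to 1594, 558, 4038 and 1041 CPM in wild type clusters 1 and 2 and Sl/Sl clusters 1 and 2. The 14 hematopoietic markers summed to between 1406 and 2350.2 CPM in clusters and to at most 153 CPM in endothelium. No endothelial or hematopoietic marker was at 0 in any library. Cdh5, the gene for VE-Cadherin on which both populations were sorted, is one of the endothelial markers. It had 2531 and 154 counts in wild type clusters, 1817 and 659 in Sl/Sl clusters and 4480 or more in endothelium. By Cdh5, Sl/Sl clusters 1 thus lay below wild type clusters 1, so the order of the marker sum was not that of every marker. The 12 mesenchymal markers stood at 5801 CPM in Sl/Sl clusters 2 and between 409 and 2152 CPM in the other 7 libraries. The 11 macrophage markers summed to between 285 and 885 CPM in clusters and to at most 35.1 CPM in endothelium. By these sums, wild type clusters 2 stands apart as low in endothelial markers and Sl/Sl clusters 1 as high in them, though not in Cdh5. Sl/Sl clusters 2 stands apart as high in mesenchymal markers. Results that rest on these libraries are given with and without them.

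The ligand gene Bmp4, chr14:47003196-47010274 in mm9, minus strand, had 11.6 and 4.67 CPM in wild type clusters, 19.9 and 85.9 in Sl/Sl clusters and 104 and 72.8 in wild type endothelium, while Sl/Sl endothelium had 53.9 and 55.9. Its level was low in both wild type cluster libraries, and the Sl/Sl cluster libraries lay above them without overlap but far from each other. Bmper, chr9:23027520-23289659, plus strand, encodes a secreted protein that binds BMPs and tunes their access to receptors. It had 2.67 and 16.8 CPM in wild type clusters, 4.52 and 48.9 in Sl/Sl clusters and 33.2 and 12.8 in wild type endothelium, while Sl/Sl endothelium had 0.263 and 6.67. Replicates of Bmper differed more than groups did, and the lowest value came from 3 counts. Bmp4 shares 86 exon bases with Gm15217 on the opposite strand, a gene with 35 counts over all libraries.

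The receptor genes separated the cell types in every library. Acvrl1, chr15:100958953-100975767, plus strand, encodes the type I receptor ALK1 of endothelial cells. It had 5.69 and 1.79 CPM in wild type clusters, 14.1 and 3.99 in Sl/Sl clusters and 95.7 and 59.8 in wild type endothelium, while Sl/Sl endothelium had 78.0 and 62.9. The highest cluster library lay far below the lowest endothelial library. Bmpr2, chr1:59821123-59934925, plus strand, is the type II receptor that pairs with ALK1 and with the BMP4 receptors. It had 79.8 and 51.6 CPM in wild type clusters, 90.3 and 127 in Sl/Sl clusters and 263 and 264 in wild type endothelium, while Sl/Sl endothelium had 315 and 197. The cell types did not overlap, and the 2 cluster genotypes did not overlap either. Eng, chr2:32502115-32538189, plus strand, encodes endoglin, the co-receptor that presents ligand to ALK1. It had 48.4 and 8.80 CPM in wild type clusters, 89.9 and 25.3 in Sl/Sl clusters and 172 and 183 in wild type endothelium, while Sl/Sl endothelium had 206 and 232. Cluster libraries spread widely for Eng, and their order was that of the endothelial marker sum. Eng shares 61 exon bases with Fpgs on the opposite strand, a gene with 1760 counts over all libraries.

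The inhibitory Smads varied between replicates. Smad6, chr9:63800883-63869866, minus strand, which acts mainly on the BMP branch, had 24.5 and 5.92 CPM in wild type clusters, 6.08 and 14.8 in Sl/Sl clusters and 41.8 and 33.2 in wild type endothelium, while Sl/Sl endothelium had 45.9 and 19.2. The wild type cluster libraries of Smad6 enclosed those of Sl/Sl, and wild type clusters 1 lay above Sl/Sl endothelium 2. Smad7, which inhibits both branches, had 32.4 and 11.1 CPM in wild type clusters, 21.7 and 18.5 in Sl/Sl clusters and 42.0 and 78.6 in wild type endothelium, while Sl/Sl endothelium had 49.4 and 68.0. For Smad6 and Smad7 alike, the cell types did not overlap within either genotype.

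Scaled by exon length, as given below, the Id genes had the highest means of the set in each group. In CPM this did not hold for Id1, since the mean of Bmpr2 lay above that of Id1 in every group but wild type endothelium. In wild type clusters Bmpr2 lay above Id1 in both libraries. Id1, chr2:152561987-152563146, plus strand, had 60.1 and 28.1 CPM in wild type clusters, 96.5 and 45.5 in Sl/Sl clusters and 343 and 364 in wild type endothelium, while Sl/Sl endothelium had 253 and 241. Both Sl/Sl endothelial libraries lay below both wild type ones, and the cluster genotypes overlapped. Id2, chr12:25778664-25780957, minus strand, had 142 and 445 CPM in wild type clusters, 246 and 454 in Sl/Sl clusters and 728 and 603 in wild type endothelium, while Sl/Sl endothelium had 605 and 672. In both genotypes cluster replicate 2 was the library nearest to endothelium for Id2, whereas for Id1 and Eng it was the farthest. Id3, chr4:135699737-135701307, plus strand, had 136 and 128 CPM in wild type clusters, 498 and 351 in Sl/Sl clusters and 1135 and 1411 in wild type endothelium, while Sl/Sl endothelium had 1190.0 and 1341. Its replicates were close in each group, and the 3 levels, wild type clusters, Sl/Sl clusters and endothelium, did not overlap.

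**Figure D1:**
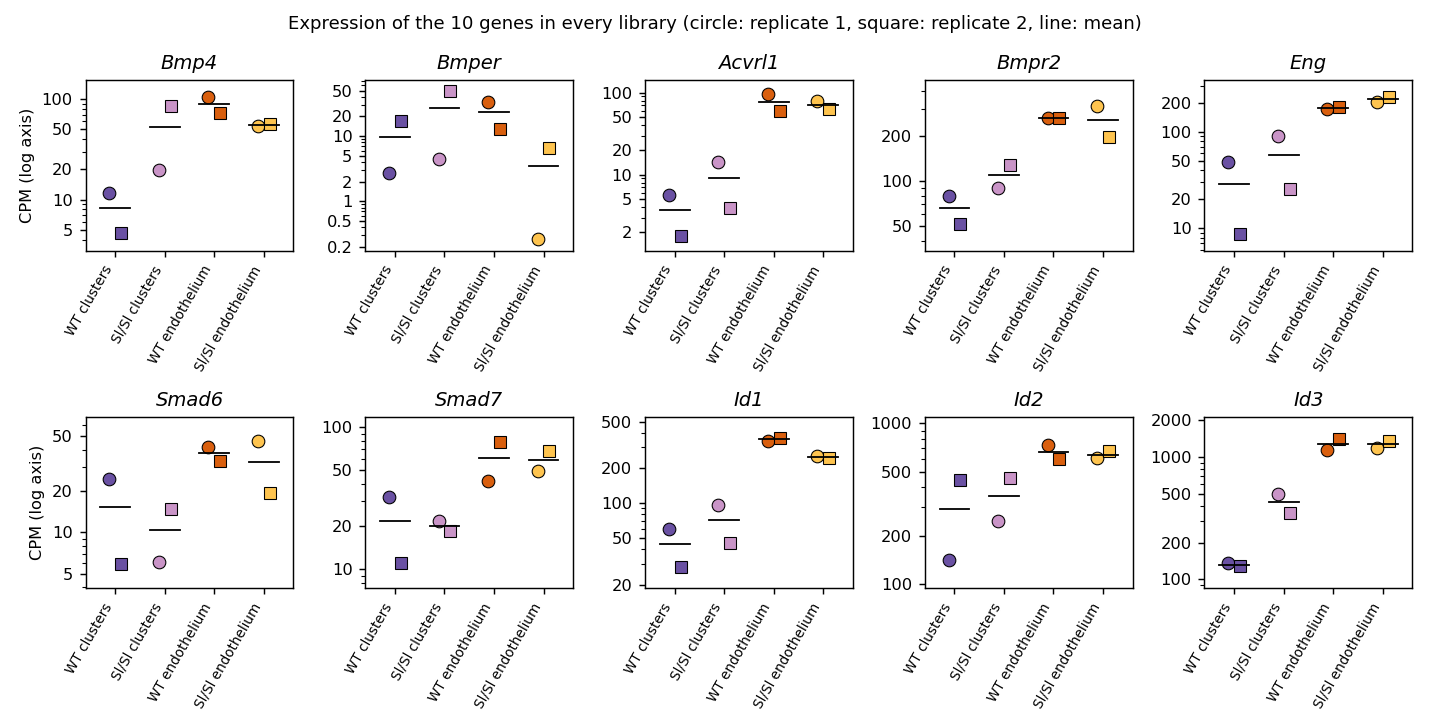
Expression of each of the 10 genes in CPM on a log axis, with one panel per gene, one column per group, a circle for replicate 1, a square for replicate 2 and a line for the group mean. Id3 sits near 130 CPM in both wild type cluster libraries, at 351 and 498 in Sl/Sl clusters and at 1135 or more in all endothelial libraries, while the replicates of Bmper lie far apart.

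Levels of different genes were compared per length, as RPKM, counts scaled by exon length and library total. In wild type endothelium the order of mean RPKM (± SD, n = 2) was Id3 at 1282 ± 162, Id2 at 504 ± 80.5, Id1 at 364 ± 5.0, Eng at 47.7 ± 0.639, Bmp4 at 42.7 ± 11.7, Bmpr2 at 22.9 ± 0.540, Acvrl1 at 19.8 ± 6.98, Smad7 at 12.98 ± 5.25, Smad6 at 12.2 ± 2.29 and Bmper at 5.87 ± 3.80. Eng and Bmp4 differed by less than the larger of their SDs, and so did each pair of neighbours from Bmpr2 down to Smad6. In wild type clusters Id2 led at 239 ± 168 RPKM, followed by Id3 at 146 ± 11.8 and Id1 at 50.1 ± 27.3. Below them lay Eng at 8.56 ± 8.55, Bmpr2 at 6.26 ± 2.12, Smad6 at 5.46 ± 4.85, Smad7 at 5.20 ± 3.75, Bmp4 at 4.35 ± 2.76, Bmper at 2.64 ± 2.66 and Acvrl1 at 1.05 ± 0.804. Neighbours among these 7 genes differed by less than the larger of their SDs, and so did Id2 and Id3. In Sl/Sl clusters Id3 led at 462 ± 97.8 RPKM, followed by Id2 at 288 ± 129.8 and Id1 at 78.4 ± 37.5. Bmp4 came next at 28.0 ± 25.3 RPKM, from 10.1 and 45.9 in its replicates, and then Eng at 16.6 ± 12.8, Bmpr2 at 10.3 ± 2.80, Bmper at 7.44 ± 8.82, Smad7 at 4.69 ± 0.378, Smad6 at 3.70 ± 2.29 and Acvrl1 at 2.45 ± 1.89. From Bmp4 to Acvrl1, neighbours differed by less than the larger of their SDs. In Sl/Sl endothelium Id3 was at 1259.8 ± 87.5 RPKM, Id2 at 476 ± 27.7, Id1 at 251 ± 12.2, Eng at 58.0 ± 4.02, Bmp4 at 26.2 ± 0.265, Bmpr2 at 22.0 ± 7.47, Acvrl1 at 17.7 ± 2.94, Smad7 at 12.5 ± 2.63, Smad6 at 10.4 ± 6.19 and Bmper at 0.857 ± 1.12. There, neighbours from Bmp4 to Acvrl1 and the 2 inhibitory Smads differed by less than the larger of their SDs.

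The upstream DNA of the 3 Id genes and of Smad6 is shown because these are the textbook targets of BMP Smads and Id1 and Id3 differed between the cell types. The letters GGCGCC form the core of the BMP-responsive element described for Id1, and GTCT is the short Smad-binding element, read AGAC on the other strand. In the 3000 bases before the annotated start, GGCGCC occurred in 6065 of 23901 genes (25.4%), and in Acvrl1, Bmpr2, Id1, Id2, Id3 and Smad6 among the 10. GGCGCC is its own reverse complement and was counted once. The spaced form GGCGCCNNNNNGTCT, searched on both strands, occurred in 51 of the 23901 genes (0.213%) and, of the 10, in Id2. Each stretch was read from the NCBIM37 genome, the same build as mm9, and runs 5′ to 3′ on the strand of its gene. Capitals mark GGCGCC and, where present, GTCT or AGAC near it. For Id2 the spaced match is shown, and GGCGCC also lay 2830 and 231 bases before its start. A match describes the letters only, and no binding was measured.
Id1, chr2:152560861-152560920, plus strand, GGCGCC 1099 bases before the start: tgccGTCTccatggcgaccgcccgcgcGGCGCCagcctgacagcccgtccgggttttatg
Id2, chr12:25783692-25783760, minus strand, GGCGCC 2776 bases before the start: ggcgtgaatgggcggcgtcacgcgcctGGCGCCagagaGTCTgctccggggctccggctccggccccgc
Id3, chr4:135699392-135699451, plus strand, GGCGCC 318 bases before the start: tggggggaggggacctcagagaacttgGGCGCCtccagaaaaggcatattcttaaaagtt
Smad6, chr9:63870836-63870895, minus strand, GGCGCC 1002 bases before the start: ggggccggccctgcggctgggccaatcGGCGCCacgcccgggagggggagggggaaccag

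In wild type embryos the 3 receptor genes, Bmp4, Id1 and Id3 were higher in endothelium than in hematopoietic clusters. Acvrl1 was 20.8-fold higher, Bmp4 10.8-fold, Id3 9.65-fold, Id1 8.01-fold, Eng 6.21-fold and Bmpr2 4.01-fold. These 6 of the 10 genes passed an adjusted p-value under 0.1, all of them higher, where 4.56% of the 13908 genes tested were called higher. The libraries of the 2 cell types did not overlap for 9 of the 10 genes, Bmper being the exception, against 25.1% of all genes that were higher without overlap. The median log2 fold change over the 10 genes was 2.32, and over all genes it was -0.0032. Since the genes were chosen with earlier results of these data known, these shares describe the set and do not test it. In these bulk samples, fewer cells that express a gene and less of its RNA per cell cannot be told apart.

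These values come from the quasi-likelihood test of edgeR, fitted to the 8 libraries together, with adjustment by Benjamini-Hochberg over all genes tested. The log2 fold change was 4.38 ± 0.84 (SE) for Acvrl1 (adjusted p = 0.0217) and 3.44 ± 0.76 for Bmp4 (adjusted p = 0.0386). It was 3.27 ± 0.24 for Id3 (adjusted p = 0.00103), the smallest error in the set, and 3.00 ± 0.46 for Id1 (adjusted p = 0.00922). Bmpr2 differed by 2.00 ± 0.36 (adjusted p = 0.0170) and Eng by 2.63 ± 0.78 (adjusted p = 0.0979). The remaining 4 genes stayed above the threshold, namely Smad7 with a log2 fold change of 1.47 ± 0.63 (adjusted p = 0.238), Smad6 with 1.30 ± 0.87 (adjusted p = 0.445), Bmper with 1.24 ± 1.53 (adjusted p = 0.715) and Id2 with 1.18 ± 0.48 (adjusted p = 0.212). Without wild type clusters 2, the library low in endothelial markers, the call was lost for Bmp4 (log2 fold change 2.89, adjusted p = 0.141) and for Eng (1.84, adjusted p = 0.207), while Id2 gained one (2.20, adjusted p = 0.0183). Eng also lost its call without wild type endothelium 1 (adjusted p = 0.146) or 2 (adjusted p = 0.165), and without wild type clusters 1 the log2 fold changes were 4.33 for Eng, 5.43 for Acvrl1, 4.24 for Bmp4 and 3.65 for Id1. Id3, Id1, Acvrl1 and Bmpr2 were called whichever library of the comparison was left out.

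In Sl/Sl embryos 2 of the 10 genes were called between endothelium and clusters, both higher in endothelium, where 0.985% of all genes tested were called higher. Id3 was 2.98-fold higher in Sl/Sl endothelium (log2 fold change 1.58 ± 0.23, edgeR adjusted p = 0.0117) and Id1 3.48-fold higher (1.80 ± 0.44, adjusted p = 0.0969). The libraries did not overlap for 8 of the 10 genes, against 21.9% of all genes higher without overlap, and Bmp4 and Bmper were the exceptions. Acvrl1 had a log2 fold change of 2.96 ± 0.78 (adjusted p = 0.124), Eng of 1.92 ± 0.76 (adjusted p = 0.292) and Bmpr2 of 1.23 ± 0.35 (adjusted p = 0.144), none of them past the threshold. Smad6 gave 1.64 ± 0.88 (adjusted p = 0.433), Smad7 1.55 ± 0.63 (adjusted p = 0.306) and Id2 0.87 ± 0.47 (adjusted p = 0.439). Bmp4 stood at 0.05 ± 0.69 (adjusted p = 0.986), and Bmper at -2.95 ± 1.64 (adjusted p = 0.444). Without Sl/Sl clusters 2, the library rich in mesenchymal markers, Bmp4 gave a log2 fold change of 1.46 and Id1 lost its call (1.36, adjusted p = 0.318). Id1 also lost it without Sl/Sl endothelium 1 (adjusted p = 0.207) or 2 (adjusted p = 0.138), and without Sl/Sl clusters 1 it stood at 2.44, where Acvrl1 gained a call (4.14, adjusted p = 0.0677).

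**Figure D2:**
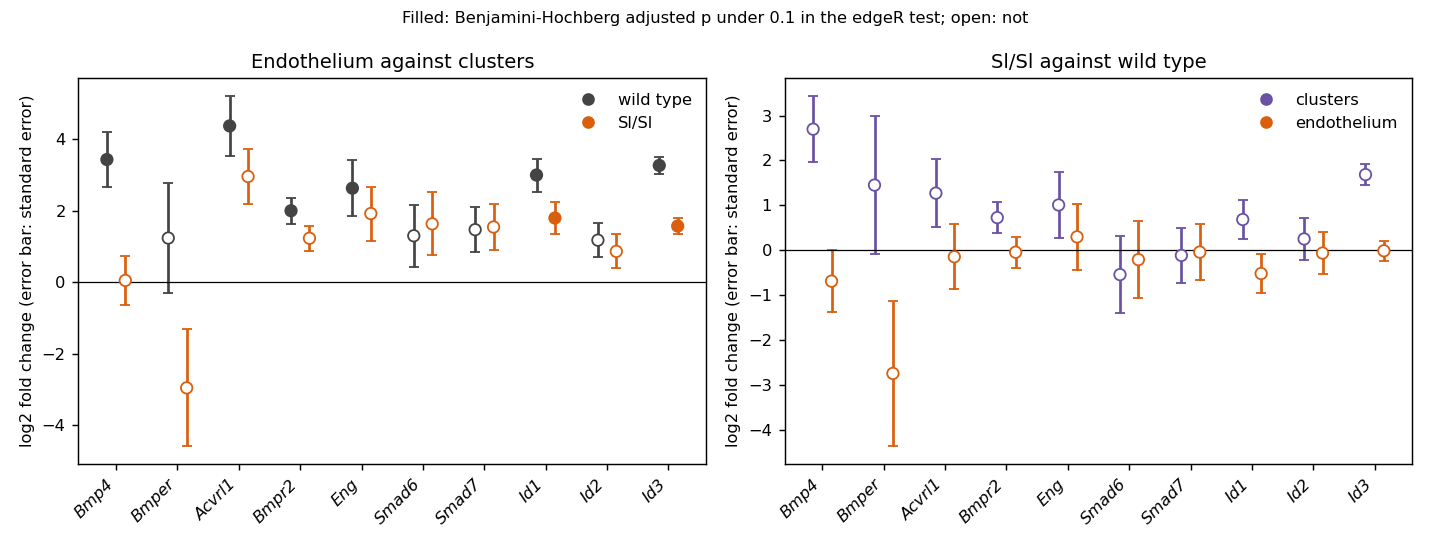
Log2 fold changes with standard errors for the 10 genes, endothelium against clusters in each genotype on the left and Sl/Sl against wild type in each cell type on the right. Filled points passed an adjusted p-value of 0.1, which 6 genes did in wild type and 2 (Id1 and Id3) in Sl/Sl between cell types, and none did between genotypes.

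Between Sl/Sl and wild type clusters, none of the 10 genes passed the threshold in edgeR's quasi-likelihood test, and none of all genes tested did (0%). Id3 came closest, at 3.22-fold higher in Sl/Sl clusters (log2 difference 1.69 ± 0.23, adjusted p = 0.109), and Bmp4 followed at 6.48-fold (2.70 ± 0.74, adjusted p = 0.693). These 2 genes were the ones with an unadjusted p under 0.05 in edgeR, where 4.22% of all genes tested lay under it. DESeq2 called both, with adjusted p = 2.532e-07 for Id3 and 0.0277 for Bmp4. It also called genes outside the set, and its calls over all genes are counted with the alternatives below. The genotypes did not overlap for Id3, Bmp4 and Bmpr2, all higher in Sl/Sl, against 16.4% of all genes higher without overlap. Bmpr2 gave a log2 difference of 0.73 ± 0.35, Acvrl1 of 1.27 ± 0.75, Eng of 1.01 ± 0.74, Id1 of 0.69 ± 0.43 and Id2 of 0.25 ± 0.47. Bmper gave 1.45 ± 1.54, Smad6 -0.54 ± 0.86 and Smad7 -0.11 ± 0.62, and for these 8 genes the adjusted p was 1. Their intervals (95%) are wide, reaching from -0.66 to 2.68 for Eng and from -1.51 to 1.28 for Smad7.

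The 2 leading genes behaved differently when libraries were left out. Id3 stayed between 1.41 and 1.92 on the log2 scale whichever cluster library was removed, and it passed the threshold without Sl/Sl clusters 2 (adjusted p = 0.0183) and without wild type clusters 1 (adjusted p = 0.0592). The value for Bmp4 was 1.29 without Sl/Sl clusters 2 (adjusted p = 1) and lay between 2.18 and 3.50 otherwise. In that library Bmp4 was at 85.9 CPM and the mesenchymal markers at 5801 CPM, and in Sl/Sl clusters 1, where these markers were at 443 CPM, the lowest sum of the cluster libraries, Bmp4 was at 19.9 CPM, above both wild type libraries. Whether the mesenchymal RNA supplied the Bmp4 counts of replicate 2 was not tested. For Id3, the endothelial marker sum was higher in Sl/Sl clusters 1 (4038 CPM) than in the wild type clusters. Sl/Sl clusters 2 had a lower sum (1041 CPM) than wild type clusters 1 (1594 CPM) and more Id3 (351 against 136 CPM). The mesenchymal marker sum of Sl/Sl clusters 2 was higher, at 5801 CPM against 1035 CPM in wild type clusters 1. The parts of endothelial and of mesenchymal RNA in the Id3 difference were not tested. Without Sl/Sl clusters 1 the log2 difference was -0.18 for Eng, 0.0962 for Acvrl1 and 0.0477 for Id1. The signs for Eng, Bmper, Id2, Smad6 and Smad7 turned in at least one of these omissions.

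Between Sl/Sl and wild type endothelium no gene of the set passed the threshold, none of all genes tested did (0%), and none of the 10 had an unadjusted p under 0.05 in edgeR, where 4.17% of all genes tested did. DESeq2 called none of the 10 either. The difference was smallest for Id3, at -0.01 ± 0.22 on the log2 scale with an interval from -0.51 to 0.49, so that a change in Id3 of the size seen between the cluster genotypes lies outside it. Bmpr2 gave -0.04 ± 0.34, Smad7 -0.04 ± 0.62, Id2 -0.06 ± 0.47, Acvrl1 -0.14 ± 0.72, Smad6 -0.21 ± 0.86 and Eng 0.30 ± 0.73. Id1 gave -0.52 ± 0.43, Bmp4 -0.69 ± 0.69 and Bmper -2.74 ± 1.62, with adjusted p = 1 for all 10 genes. Genotypes did not overlap for Id1, Bmp4 and Bmper, lower in Sl/Sl, and for Eng, higher in Sl/Sl, against 14.9% and 13.5% of all genes lower and higher without overlap. For Id2, Id3, Smad6, Smad7, Acvrl1 and Bmpr2 the sign turned with the library left out.

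The genotype difference was compared between clusters and endothelium by the interaction of cell type and genotype, which shares its 8 libraries with the comparisons above. None of the 10 genes passed, and none of all genes tested did (0%). Id3 and Bmp4 had an unadjusted p under 0.05, where 5.29% of all genes tested lay under it. The genotype difference of Id3 was larger in clusters than in endothelium by 1.70 ± 0.32 on the log2 scale (edgeR adjusted p = 0.807) and that of Bmp4 by 3.38 ± 1.01 (adjusted p = 0.902). DESeq2 called Id3 (adjusted p = 0.00405) and Bmp4 (adjusted p = 0.0882), and the share of all genes that it called in the interaction is not given here. Bmper gave 4.19 ± 2.23, Acvrl1 1.42 ± 1.04, Id1 1.20 ± 0.61, Bmpr2 0.77 ± 0.49, Eng 0.71 ± 1.04 and Id2 0.31 ± 0.67, and Smad7 (-0.07 ± 0.87) and Smad6 (-0.33 ± 1.21) were on the other side of 0. Without Sl/Sl clusters 2 the value for Bmp4 was 1.97 and that for Id3 1.93.

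Each cluster library was also set against the mean of the endothelium of its own genotype, beside the endothelial marker sum. That sum reached 16.7% and 5.84% of endothelium in wild type clusters and 39.7% and 10.2% in Sl/Sl clusters. Eng kept the same order of libraries, at 27.3% and 4.96% in wild type clusters and 41.1% and 11.6% in Sl/Sl clusters. Id1 lay within 3 percentage points of the sum in 3 of the 4 libraries, at 17.0%, 7.95% and 39.0%, and at 18.4% in Sl/Sl clusters 2. Acvrl1 lay below the marker sum in all 4 cluster libraries, at 7.32%, 2.30%, 20.0% and 5.66%. Id3 was at 10.7% and 10.04% in wild type clusters and at 39.3% and 27.8% in Sl/Sl clusters, so that its 2 wild type libraries were alike although their marker sums were not. Id2, at 21.3%, 66.9%, 38.5% and 71.1%, and Bmpr2, at 30.3%, 19.6%, 35.3% and 49.8%, showed another order of libraries, with Id2 highest where the endothelial markers were lowest within each genotype. Bmp4 reached 13.2%, 5.29% and 36.2%, and in Sl/Sl clusters 2 156%. Bmper reached 1410% there, since Sl/Sl endothelium had little of it.

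**Figure D3:**
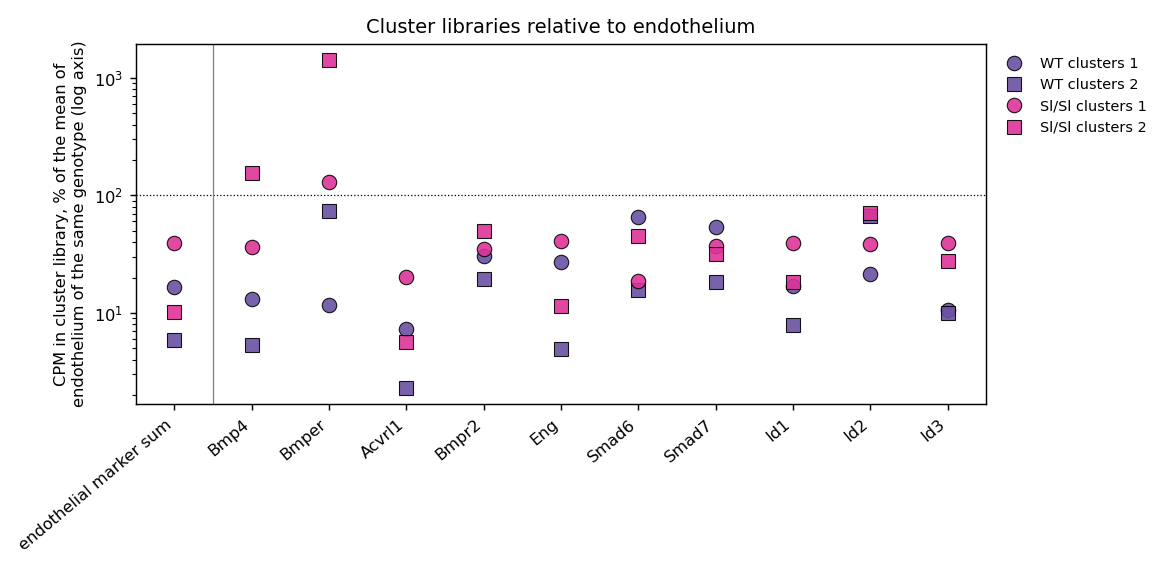
Level in each of the 4 cluster libraries as a percentage of the mean of endothelium of the same genotype, on a log axis, for the sum of the 18 endothelial markers and for the 10 genes. Circles are replicate 1, squares replicate 2, and the dotted line marks equality, which Bmp4 exceeds in Sl/Sl clusters 2 (156%) and Bmper in both Sl/Sl cluster libraries.

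The Id genes were summed as RPKM and set beside the E proteins they bind. The sum of Id1, Id2, Id3 and Id4 was 344 and 527 RPKM in wild type clusters, 833 and 829.8 in Sl/Sl clusters and 2090.1 and 2219.6 in wild type endothelium, while Sl/Sl endothelium had 1917 and 2062. The E proteins Tcf3, Tcf4 and Tcf12 together lay between 37.7 and 83.3 RPKM in all libraries. The ratio of the Id sum to the E protein sum was 6.13 and 14.0 in wild type clusters, and 21.5 and 14.4 in Sl/Sl clusters. It was higher in endothelium, where the wild type libraries gave 25.1 and 32.7 and those of Sl/Sl embryos 27.8 and 31.6. The 3 levels of the Id sum did not overlap, while the ratio of the cluster genotypes came close, at 14.0 and 14.4 for their replicates 2. In endothelium the composition of the sum was stable, with Id3 at 55.9% to 64.1%, Id2 at 20.1% to 26.8% and Id1 at 11.8% to 17.2%. In clusters it was not. Id2 made up 34.9% and 68.0% of the sum in wild type clusters and 23.6% and 45.8% in Sl/Sl clusters, and Id3 44.8%, 26.0%, 63.7% and 47.3%. Id4 was at most 0.616% of the sum in any library.

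**Figure D4:**
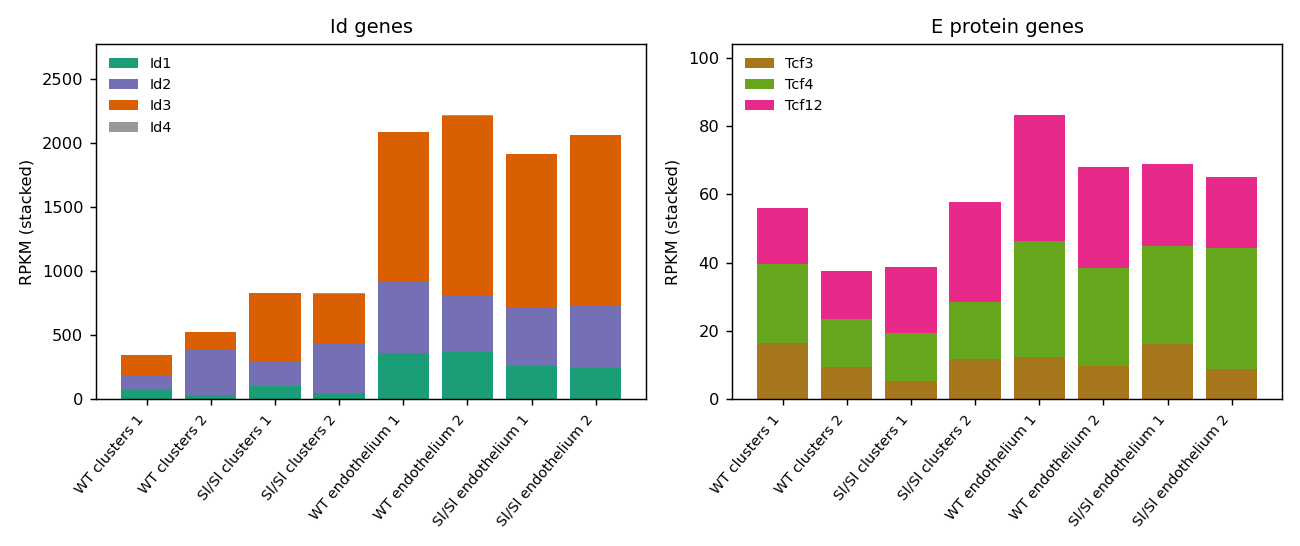
Stacked RPKM of the 4 Id genes on the left and of the 3 E protein genes on the right in each of the 8 libraries. The Id sum stands at 344 and 527 RPKM in wild type clusters, at 833 and 829.8 in Sl/Sl clusters and at 1917 or more in endothelium, with Id3 the largest part in every endothelial library.

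The wider pathway was followed with 70 genes in 10 lists by role, also chosen with earlier results of these data known. Of the 70 genes, 54 could be tested. In wild type embryos 14 of the 54 were called between endothelium and clusters, all higher in endothelium, where 4.56% of all genes tested were called higher. The median log2 fold change of the 54 was 1.35, against -0.0032 over all genes. Beside the 6 genes above they were Tmem100, Pmepa1, Hey1, Bambi, Acvr1, Ski, Skil and Tcf12. Without wild type clusters 2, 9 of the 54 were called. In Sl/Sl embryos 3 of the 54 were called, Id1, Id3 and Tmem100, where 0.985% of all genes tested were called higher. The median log2 fold change was 0.95 there, against -0.0659 over all genes. Between genotypes 0 of the 54 passed in edgeR in either cell type. In clusters 4 of the 54, Id3, Bmp4, Tmem100 and Tgfb2, had an unadjusted p under 0.05 in edgeR, where 4.22% of all genes tested did. DESeq2 called Id3, Bmp4 and Tmem100, and its calls over all genes are counted with the alternatives below. In endothelium 0 of the 54 had such a p, where 4.17% of all genes tested did.

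Among ligands, Bmp4 was the BMP gene with the highest mean RPKM over the libraries (25.3), and Gdf2, Bmp10, Gdf5 and Gdf6 were too low to test, Bmp10 with no count at all. Tgfb2, the most abundant TGF-beta gene, had 6.56 and 4.28 CPM in wild type clusters, 4.85 and 73.6 in Sl/Sl clusters and 37.0 and 36.1 in wild type endothelium, while Sl/Sl endothelium had 39.2 and 42.5. As with Bmp4 and Bmper, the high cluster value was that of Sl/Sl clusters 2, the library with the highest mesenchymal marker sum. The modulators were sparse, since 4 of 10 could not be tested and 0 of the 6 tested were called in any comparison, with Twsg1 the most abundant at a mean of 11.6 RPKM.

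The make-up of the type I receptor genes differed between the cell types. Of the summed RPKM of the 7 type I receptor genes, Acvrl1 made up 30.8% to 38.5% in endothelium and 2.22% to 13.1% in clusters, while Tgfbr1, the TGF-beta type I receptor, made up 17.8% to 28.8% in endothelium and 39.4% to 59.8% in clusters. These ranges did not overlap, but they are shares of a sum. The level of Tgfbr1 itself was not called between the cell types, and its group means lay between 12.6 and 15.8 RPKM. From clusters to endothelium its log2 fold change was 0.16 ± 0.42 in wild type (edgeR adjusted p = 0.897). For Sl/Sl it was -0.19 ± 0.42 (adjusted p = 0.900), with the endothelial libraries below those of clusters without overlap. Acvr1, a type I receptor for BMPs, was called higher in wild type endothelium (log2 fold change 2.02 ± 0.56, edgeR adjusted p = 0.0796), but it lost this call whichever of the 4 libraries was left out, with adjusted p from 0.148 to 0.316. Among type II genes Bmpr2 made up 30.8% to 44.1% in endothelium and 14.8% to 37.2% in clusters. Tgfbr2, the most abundant type II gene at a mean of 25.2 RPKM, made up 41.9% to 59.1% over all libraries. The shares of both genes overlapped between the cell types. The receptor Smads and Smad4 were called in 0 of 5 tested genes in every comparison, and Smad4 was the most abundant at a mean of 19.3 RPKM.

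The intracellular inhibitors and targets held the other calls. Tmem100, a target of ALK1 signals in arterial endothelium, had 12.4 and 3.50 CPM in wild type clusters, 103 and 18.0 in Sl/Sl clusters and 513 and 551 in wild type endothelium, while Sl/Sl endothelium had 672 and 603. The cell types were far apart, and the Sl/Sl cluster libraries lay above the wild type ones. Its log2 fold change between cell types was 6.06 ± 0.89 in wild type (edgeR adjusted p = 0.00722) and 3.39 ± 0.78 in Sl/Sl (adjusted p = 0.0787). In Sl/Sl it was 5.15 without clusters 1 and 2.62 without clusters 2, and the call was lost without endothelium 1 (3.29, adjusted p = 0.106) and when the 4 Sl/Sl libraries were fitted alone. Pmepa1, which restrains TGF-beta signals, was higher in wild type endothelium by 3.56 ± 0.66 (adjusted p = 0.0200), and Hey1, a target of both Notch and BMP, by 3.21 ± 0.65 (adjusted p = 0.0259). Bambi, a decoy receptor, was higher by 2.82 ± 0.63 (adjusted p = 0.0388), and the co-repressors Ski and Skil by 1.89 ± 0.47 (adjusted p = 0.0588) and 1.39 ± 0.29 (adjusted p = 0.0296). Thus 4 of the 9 intracellular inhibitors and 4 of the 9 tested targets were called in wild type, where 4.56% of all genes tested were called higher, and Smad6 and Smad7 were not among them. Ski and Skil lost their calls without wild type clusters 2 (log2 fold changes 1.51 and 1.03, adjusted p = 0.249 and 0.145), Ski also without wild type endothelium 1 (1.49, adjusted p = 0.229) and Skil without wild type endothelium 2 (1.22, adjusted p = 0.110). Tmem100, Pmepa1, Hey1 and Bambi were called whichever library was left out, at 7.24, 4.76, 4.27 and 4.38 without wild type clusters 1 and at 5.39, 2.88, 2.57 and 2.06 without wild type clusters 2. Of the E proteins, Tcf12 was called at 1.25 ± 0.32 (adjusted p = 0.0623), a call that no omission of a single library kept (adjusted p from 0.124 to 0.254), and Tcf4, the most abundant at a mean of 24.3 RPKM, gave 0.89 ± 0.30 (adjusted p = 0.143).

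**Figure D5:**
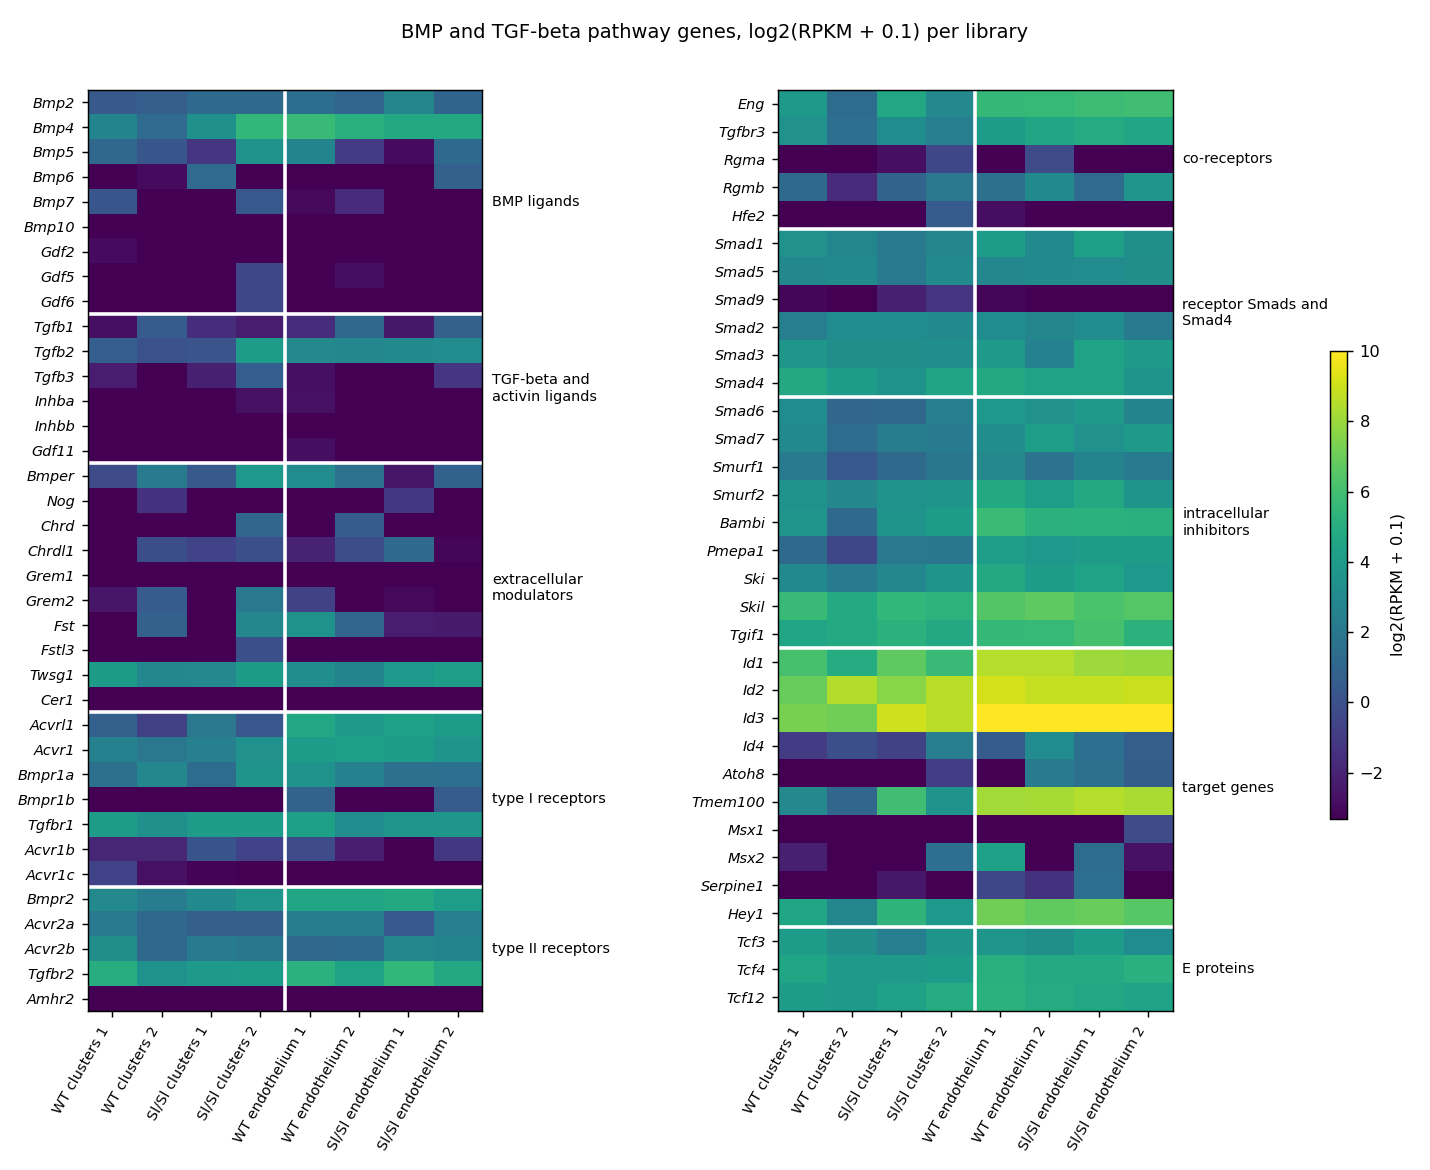
Heat map of log2(RPKM + 0.1) for the 70 pathway genes in the 8 libraries, grouped by role, with white lines between lists and between clusters and endothelium. Acvrl1, Eng, Id1, Id3, Tmem100 and Hey1 are brighter in the 4 endothelial libraries than in the 4 cluster libraries, while Tgfb2 is bright in Sl/Sl clusters 2 among the clusters.

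The tested genes whose profiles over the 8 libraries lay nearest to a gene of the set were ranked by the root mean square difference of centred log2 CPM. Nearest to Id1 were Gchfr (0.28), Ets1 (0.29) and 9430020K01Rik (0.29), against a median of 1.64 over all genes. Nearest to Id3 were Igsf3 (0.29), Anxa3 (0.29) and Igf1 (0.31), with a median of 1.65, and nearest to Id2 were Abcd3 (0.25), Mpdz (0.28) and Rc3h2 (0.28), with a median of 1.20. The neighbours of the 3 Id genes were thus different genes. Igf1, a growth factor gene, stood at 3 levels like those of Id3, with 40.7 and 42.0 CPM in wild type clusters, 127 and 173 in Sl/Sl clusters and 270.3 to 400.3 in endothelium. Eng lay nearest to the endothelial genes Tek (0.24), Myct1 (0.25) and Ecscr (0.27), with a median of 1.85. For Bmper the nearest genes were Pcolce (0.68), Rarres2 (0.69) and B3gnt8 (0.77), with a median of 2.21, and Pcolce, which encodes an enhancer of collagen processing, was highest in Sl/Sl clusters 2 at 122 CPM. All genes were measured in the same libraries, which differ in depth and cell composition, so these distances describe likeness in these samples alone.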

How the data were processed

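SMARTSEQ2 libraries were sequenced as paired ends. The authors aligned reads to mm9 with STAR 2.4.2a, merged lanes and counted reads per gene with featureCounts of Subread 1.4.5, and the deposited values are these raw counts, without normalization or pooling. The annotation and strand setting are not given in the sources used here, so reads of overlapping genes on opposite strands cannot be told apart. The table holds 24015 genes, of which 27 names had been turned into dates and were kept in the tests, and 0 columns of other samples. Without molecular identifiers, counts are not independent molecules.

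Groups were read from the sample titles, and the labels call the 2 samples of a group biological replicates. Counts were analysed with edgeR 4.0.16, limma 3.58.1 and DESeq2 1.42.0 in R 4.3.3 and with Python 3.11.15. Libraries were scaled by TMM, genes were filtered with filterByExpr on the 4 groups, and the 8 libraries were fitted together with 4 residual and 5.24 prior degrees of freedom and a common dispersion of 0.667. The quasi-likelihood test was used with Benjamini-Hochberg adjustment over the 13908 genes tested and a threshold of 0.1, the one the authors applied. With DESeq2 at that threshold the paper called genes between genotypes in both clusters and endothelium, whereas the edgeR test here called none. The standard error is the log2 fold change divided by the square root of F. CPM used TMM-scaled totals, log2 CPM a prior count of 2, and RPKM plain totals and the exon length of the table. The 8 libraries held between 12844 and 14309 detected genes, and replicates correlated at 0.885 to 0.899 (Spearman, across genes).

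The 10 genes, the pathway lists and the marker lists were chosen with earlier results of these data known. Named are all 10 genes, every pathway gene past the threshold (Tgfb2 and other genes with an unadjusted p under 0.05 were named after their values were seen), the gene of each list with the highest mean RPKM, and the 3 nearest profiles of Id1, Id2, Id3, Eng and Bmper. Alternatives were RLE factors, no filter on low counts, DESeq2, the 4 libraries compared alone, a threshold of 0.05, a replicate block, TMM-scaled totals for RPKM, and the omission of each library in turn, where the lone library of a group is assumed to vary like the others.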

Additional observations from a re-analysis of the deposited data

Results flagged for a closer look

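One result drew attention because its direction differed between the cell types. For Bmp4, each Sl/Sl cluster library lay above each wild type one, whereas each Sl/Sl endothelial library lay below each wild type one. The difference between these 2 differences was 3.38 on the log2 scale. It did not pass the threshold in the quasi-likelihood test of edgeR (Benjamini-Hochberg adjusted p = 0.902), and it was 1.97 without Sl/Sl clusters 2, the library with the highest mesenchymal marker sum, whose part in the result was not tested.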

How the results depend on the processing

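Of the wild type comparison of cell types, 5 to 7 of the 10 genes were called under every alternative, and the 54 pathway genes gave 9 to 13 calls when 1 library was left out, with 9 without wild type clusters 2. For the Sl/Sl comparison of cell types, called genes of the set numbered 2, against 1 at a threshold of 0.05, 6 without a filter, 5 in DESeq2, 1 in the 4 libraries alone and 1 to 3 with a library left out. Its pathway calls numbered 3, against 1, 14, 12 and 1 in the same order and 1 to 5. Between cluster genotypes, 0 of the set were called, against 2 without a filter, 2 in DESeq2 and 0 to 1 with a library left out, and of the pathway genes 0, against 4, 3 and 0 to 2. For the interaction, 0 became 2 and 2 for the set (Id3 and Bmp4) and 3 and 2 for the pathway genes, without a filter and in DESeq2. No alternative called any of the 10 genes between endothelial genotypes. Over all genes tested, 253 were called between cluster genotypes without a filter and 175 in DESeq2, against 0. For the other comparisons, the shares of all genes called under these alternatives are not given here. Whether the counts of the set rose there more than calls over all genes was not tested.

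Deviations of same-numbered replicates from their group means had correlations from -0.111 to 0.157, the highest between the cluster genotypes. The labels do not tie samples to the sorting experiments named in the paper, so whether the numbers pair samples cannot be told. With the replicate number as a block, 7 genes of the set were called between wild type cell types, Id2 being added (1.37, adjusted p = 0.0996), and 3 between Sl/Sl cell types, Acvrl1 being added (3.22, adjusted p = 0.0376). The Sl/Sl pathway calls were 5, and in clusters 1 gene of the set and 1 pathway gene were called, Id3 in both cases (adjusted p = 0.0975). The block turned Smad6 in the interaction to 0.0762.

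With 1 library left out, some log2 values changed sign. In Sl/Sl, Bmp4 between cell types ranged from -0.65 to 1.46. Between cluster genotypes the ranges were -0.35 to 1.30 for Id2, -1.32 to 0.82 for Smad6, -0.69 to 0.86 for Smad7, -0.18 to 2.71 for Eng and -1.11 to 3.31 for Bmper. Between endothelial genotypes they were -0.17 to 0.0839 for Id2, -0.16 to 0.17 for Id3, -0.96 to 0.28 for Smad6, -0.42 to 0.50 for Smad7, -0.43 to 0.24 for Acvrl1 and -0.41 to 0.25 for Bmpr2. For the interaction they were -0.29 to 1.36 for Id2, -1.11 to 1.03 for Smad6, -0.66 to 0.90 for Smad7 and -0.48 to 2.41 for Eng. None of these values was called, and the causes were not tested. RLE factors moved the median of all genes by less than 0.1 in each comparison and cost Eng its call between wild type cell types (adjusted p = 0.101), as did the 4 libraries alone (adjusted p = 0.128), which also cost Id1 its call in Sl/Sl (adjusted p = 0.165). With 2 libraries of 100 cells a group, low genes such as Bmper (3 counts in Sl/Sl endothelium 1) have wide intervals.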

Other observations

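Some values belong to no comparison above. Germ cell markers summed to 93.1 CPM in wild type clusters 1 and to between 4.17 and 19.0 CPM in the other libraries. Erythroid markers summed to 253 CPM in Sl/Sl clusters 1 and to between 21.7 and 108 CPM elsewhere. Kit, the receptor of Kitl on which clusters were sorted, had 2937 to 4392 counts in clusters and 538 to 1065 in endothelium.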
